A study of Rattus norvegicus with 9 samples.

Results

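The glial intermediate filament genes Gfap, Vim, Nes and Synm were followed across 9 RNA-seq libraries of rat striatal tissue. The 4 genes were taken by symbol from the 22890 gene IDs of the deposited count files, all 4 were found, and all 4 passed the filter on low counts that left 14274 genes for testing. The libraries fall into 3 groups of 3. EDB stands for edaravone dexborneol, a combination drug whose edaravone component scavenges free radicals. ICH stands for intracerebral hemorrhage, a bleed within the brain, and Sham marks the control group. The labels do not say whether EDB rats also had a hemorrhage, and they give no dose, time, strain, sex, age or way of inducing the hemorrhage. Whether each library is its own animal is not stated either, so p-values measure the spread between these libraries, which may be technical.

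Intermediate filaments are ropelike polymers that give a cell mechanical strength and that, in astrocytes, fill the processes. Gfap and Vim encode type III filament proteins that can form a filament on their own. Nes (nestin) and Synm (synemin) encode large type IV proteins that do not readily form filaments alone and join filaments built on vimentin or a like partner. Gfap is the standard marker of astrocytes and of their reactive state after injury. Vim is also made by endothelial cells, microglia and fibroblasts, and Nes by neural progenitors, proliferating cells and vessels, so in whole tissue neither belongs to astrocytes alone.

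Promoter sequences of the 4 genes are shown because they place the genes side by side where transcription starts. Each sequence is the 250 bases before the transcript start, from RefSeq on build GRCr8, read 5′ to 3′ on the gene's strand. The counts rest on another build, so these positions belong to GRCr8 only. Capitals mark matches to the motifs searched on both strands, which were the motif TATAAA of the TATA box, the motif CCAAT of the box bound by nuclear factor Y, the motif GGGCGG of the GC box, the short motif TTGGC of nuclear factor I, the motif TGANTCA of AP-1, the palindrome TTCNNNGAA of STAT factors and a wider form of that palindrome with 1 more base in its spacer, added after the sequences were read. The Gfap window is chr10:88361662-88361911 (minus strand), the Vim window chr17:81577011-81577260 (plus strand), the Nes window chr2:175736338-175736587 (plus strand) and the Synm window chr1:130773825-130774074 (minus strand).
Gfap: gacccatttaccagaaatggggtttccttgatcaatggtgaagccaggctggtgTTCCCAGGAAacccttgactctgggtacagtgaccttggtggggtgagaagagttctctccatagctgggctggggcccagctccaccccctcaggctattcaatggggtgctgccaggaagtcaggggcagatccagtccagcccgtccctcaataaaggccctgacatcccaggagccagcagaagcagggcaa
Vim: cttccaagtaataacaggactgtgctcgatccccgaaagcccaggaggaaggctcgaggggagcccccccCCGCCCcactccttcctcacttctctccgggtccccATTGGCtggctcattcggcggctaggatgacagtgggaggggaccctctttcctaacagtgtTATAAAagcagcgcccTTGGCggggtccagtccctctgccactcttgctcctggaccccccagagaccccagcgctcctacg
Nes: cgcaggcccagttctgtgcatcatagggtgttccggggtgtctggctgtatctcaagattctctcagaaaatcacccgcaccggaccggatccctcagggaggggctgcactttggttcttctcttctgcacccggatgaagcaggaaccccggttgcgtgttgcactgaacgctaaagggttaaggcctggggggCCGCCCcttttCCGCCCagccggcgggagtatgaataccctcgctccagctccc
Synm: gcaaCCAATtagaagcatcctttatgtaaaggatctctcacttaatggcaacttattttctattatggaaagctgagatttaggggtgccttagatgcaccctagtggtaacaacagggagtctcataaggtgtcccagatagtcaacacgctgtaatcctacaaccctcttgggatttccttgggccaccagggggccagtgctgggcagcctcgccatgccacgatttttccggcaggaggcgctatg

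The Gfap window held 1 match, to the wider STAT palindrome, as TTCCCAGGAA, 196 bases before the start. That motif was found in 6.25% of 33469 rat promoter windows of the same length. Because it was added after the sequences were read, this share does not measure how unexpected the match is. The Vim window held a TATA box 82 bases before the start, a GC box at 180, a CCAAT box at 144 on the other strand and nuclear factor I short sites at 143 and 66. The short site at 143 overlaps the CCAAT box, so those matches share bases. The Nes window held 2 GC boxes, 54 and 43 bases before the start, and the Synm window a CCAAT box at 246. TATA boxes were found in 12.9% of windows, CCAAT boxes in 34%, GC boxes in 30.5% and nuclear factor I short sites in 40.3%. TTCNNNGAA, found in 7.67% of windows, and TGANTCA, found in 6.34%, matched none of the 4 windows. No motif searched was found in all 4 windows. GC content was 57.6% in the Gfap window, 62.4% in Vim, 60.4% in Nes and 49.2% in Synm.

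Library totals ran from 14658110 to 17659936 counts, and the 13 mitochondrially encoded genes took from 2.93% to 12.03% of them. At this depth counting error was small: the lowest member count, 151 for Nes in Sham 2, was 0.000956% of that library (95% exact binomial interval 0.000810% to 0.00112%, counting error only). Levels are given as CPM, counts scaled to a common library size, on library sizes scaled by the trimmed mean of M values. EDB 3 carried transcripts of the choroid plexus, the tissue that makes cerebrospinal fluid: its summed choroid plexus markers reached 7717 CPM, against 33.6 to 88.2 CPM in the other 8 libraries. The neurons of the striatum were present by their markers, whose 11 genes found summed to 10526 to 11859 CPM in EDB libraries, 6981 to 8849 CPM in ICH libraries and 11143 to 16740 CPM in Sham libraries.

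Gfap stood at 3127, 2803 and 3768 CPM in EDB libraries, at 5041, 5163 and 4542 CPM in ICH libraries, and at 544, 505 and 403 CPM in Sham libraries. The 3 groups did not overlap, with ICH highest, EDB between and Sham lowest. Group means were 3233 ± 491 CPM in EDB, 4915 ± 329 CPM in ICH and 484 ± 73.2 CPM in Sham (SD, n = 3 each). Gfap reads alone made up 0.283% to 0.370% of all counts in EDB libraries, 0.476% to 0.546% in ICH libraries and 0.0388% to 0.0559% in Sham libraries. In bulk tissue, fewer cells of a type and less RNA per cell cannot be told apart, and this holds for each gene that follows.

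Vim, the other type III gene, stood at 246, 122 and 367 CPM in EDB libraries, 720, 672 and 542 CPM in ICH libraries, and 128, 92.6 and 106 CPM in Sham libraries. All ICH libraries lay above all others, whereas EDB 2 lay within the Sham range. Means were 245 ± 122 CPM in EDB, 645 ± 91.8 CPM in ICH and 109 ± 17.9 CPM in Sham (SD, n = 3 each). The EDB libraries spread over a 3.01-fold range for Vim. EDB 3, the library with choroid plexus transcripts, had the highest Vim of its group, and the part of those transcripts in its Vim level was not tested.

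Nes stood at 14.4, 10.8 and 10.4 CPM in EDB libraries, 70.2, 60.3 and 64.4 CPM in ICH libraries, and 16.1, 10.3 and 17.6 CPM in Sham libraries. Here EDB and Sham libraries overlapped and ICH stood apart from both. Means were 11.9 ± 2.20 CPM in EDB, 65.0 ± 4.95 CPM in ICH and 14.7 ± 3.84 CPM in Sham (SD, n = 3 each). Unlike Vim, the EDB library with choroid plexus transcripts had the lowest Nes of its group.

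Synm stood at 30.7, 46.0 and 51.6 CPM in EDB libraries, 67.1, 83.6 and 68.9 CPM in ICH libraries, and 53.0, 28.2 and 51.3 CPM in Sham libraries. The ICH libraries were again the highest 3 of 9, and EDB and Sham overlapped. Means were 42.7 ± 10.8 CPM in EDB, 73.2 ± 9.04 CPM in ICH and 44.2 ± 13.9 CPM in Sham (SD, n = 3 each). Sham 2 had the lowest level of both type IV genes among Sham libraries.

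**Figure D1:**
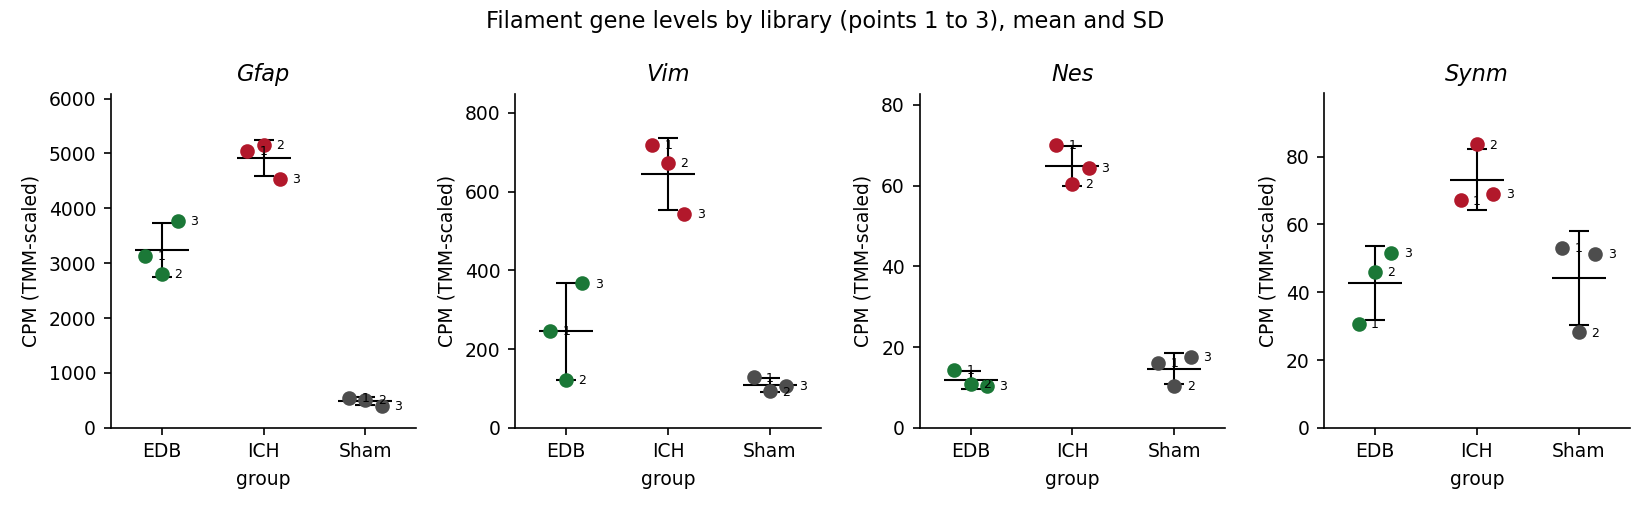
Levels of Gfap, Vim, Nes and Synm in CPM (linear axes from 0) for EDB, ICH and Sham, with a point per library numbered by replicate, a line at the mean and bars of 1 SD. ICH libraries are highest for all 4 genes, and EDB lies between ICH and Sham for Gfap but overlaps Sham for the others.

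The first comparison asks what the hemorrhage did to the filament genes, ICH against Sham. Gfap, Vim and Nes rose, and the difference of Synm did not pass the test. A gene was called where edgeR's quasi-likelihood test gave an adjusted p under 0.05, with Benjamini-Hochberg adjustment across the 14274 genes. Of all genes tested, 18.7% were called, 11.4% higher and 7.3% lower in ICH, 20.2% had ICH libraries all above Sham libraries, and the median log2 fold change over all genes was 0.01.

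Gfap was 10.2-fold higher in ICH (log2 fold change 3.34 ± 0.18 SE, edgeR adjusted p = 4.68e-06), with the third smallest p of all genes tested. Vim was 5.92-fold higher (2.57 ± 0.33, edgeR adjusted p = 0.000354). Nes was 4.43-fold higher (2.15 ± 0.21, edgeR adjusted p = 6.77e-05). These 3 calls held when any 1 of the 9 libraries was left out.

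Synm was 1.66-fold higher in ICH at a log2 fold change of 0.73 ± 0.25 (95% interval 0.18 to 1.27), with an edgeR adjusted p of 0.0642. Its ICH and Sham libraries did not overlap, which was true of 35.6% of all genes tested in either direction and of 20.2% with ICH higher. Without EDB 1 the value stayed at 0.73 and passed the threshold (edgeR adjusted p = 0.0494), and with DESeq2 it was 0.70 (adjusted p = 0.0305). The highest edgeR adjusted p with 1 library left out was 0.197.

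The second comparison sets EDB against ICH. Nes fell, and it is the only one of the 4 genes whose difference passed the test. Only 0.687% of all genes were called here, 0.056% higher and 0.631% lower in EDB, with a median log2 fold change of -0.03 over all genes. The edgeR calls were 8 higher and 90 lower, against 217 and 485 with DESeq2, 92 and 229 without Sham 2, and 26 and 84 when only the 6 libraries compared were fitted.

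Nes in EDB was at 0.183 of its ICH level (log2 fold change -2.45 ± 0.21 SE, 95% interval -2.91 to -1.99, edgeR adjusted p = 0.00242). This was the smallest p of all 14274 genes, and by size it ranked 51 among the falls. The call held when any 1 of the 9 libraries was left out, with log2 fold changes from -2.61 to -2.37 and a highest edgeR adjusted p of 0.0185.

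The other members were lower in every EDB library than in every ICH library without passing the test. Such a separation was found for 25.2% of all genes in either direction, and for 13.6% with EDB lower. Gfap differed by -0.60 ± 0.16 on the log2 scale (95% interval -0.96 to -0.25, edgeR adjusted p = 0.109). Vim differed by -1.40 ± 0.31 (95% interval -2.09 to -0.70, edgeR adjusted p = 0.0715) and Synm by -0.78 ± 0.25 (95% interval -1.32 to -0.23, edgeR adjusted p = 0.162). DESeq2 called both Gfap (-0.58, adjusted p = 0.0121) and Vim (-1.37, adjusted p = 0.000734), and limma-voom called Vim (-1.53, adjusted p = 0.0484). None of these members was called when 1 library was left out. There the edgeR adjusted p ran from 0.0708 to 0.289 for Gfap, 0.0610 to 0.213 for Vim and 0.0583 to 0.408 for Synm.

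The third comparison sets EDB against Sham, and here the 4 genes parted. Gfap rose, Vim passed the threshold narrowly, and Nes and Synm showed no called difference. Of all genes, 7.66% were called, 4.95% higher and 2.71% lower in EDB, with a median log2 fold change of -0.01. The EDB and Sham libraries did not overlap, in either direction, for 26% of genes.

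Gfap was 6.68-fold higher in EDB than in Sham (log2 fold change 2.74 ± 0.17 SE, edgeR adjusted p = 4.76e-05), with the second smallest p of all genes tested. The call held when any 1 of the 9 libraries was left out.

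Vim was 2.25-fold higher (1.17 ± 0.31, edgeR adjusted p = 0.0481), with overlapping libraries. That call was lost when any 1 library other than EDB 2 was left out. Over those refits the edgeR adjusted p ran from 0.0575 to 0.153. The value without EDB 3 was 0.76 (edgeR adjusted p = 0.140), against 1.49 without EDB 2.

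Nes differed by -0.30 ± 0.21 (95% interval -0.76 to 0.15, edgeR adjusted p = 0.425) and Synm by -0.05 ± 0.25 (95% interval -0.59 to 0.50, edgeR adjusted p = 0.934). The intervals therefore include no difference but do not show that EDB and Sham were alike. The sign of the Synm value turned without EDB 1 (0.15), Sham 1 (0.10) or Sham 3 (0.07). EDB against ICH and EDB against Sham share the EDB libraries, and ICH against Sham shares its controls with the last, so these values are not independent of each other.

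**Figure D2:**
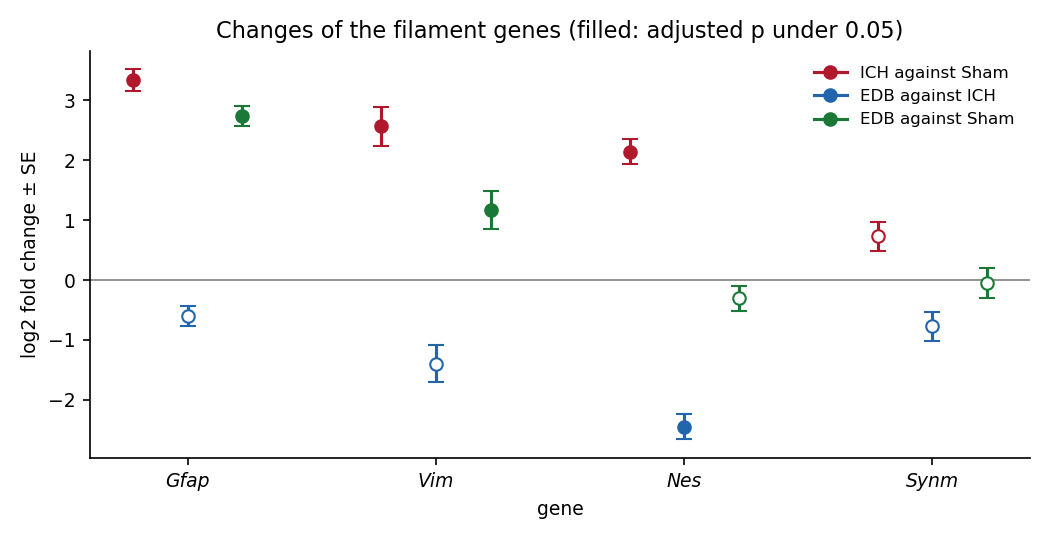
Log2 fold changes of the 4 genes in ICH against Sham, EDB against ICH and EDB against Sham, with bars of 1 SE and filled points where the edgeR adjusted p was under 0.05. Nes has the deepest fall in EDB against ICH, -2.45, and Gfap the largest values against Sham, 3.34 in ICH and 2.74 in EDB.

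Ratios of counts within a library do not depend on how libraries were scaled, and they were compared as a percentage of Gfap counts. Vim counts came to 7.87%, 4.35% and 9.73% of Gfap counts in EDB libraries, 14.3%, 13.0% and 11.9% in ICH libraries, and 23.5%, 18.3% and 26.3% in Sham libraries. The groups did not overlap, and the share of Vim was lowest in EDB. Nes counts came to 0.461%, 0.385% and 0.277% of Gfap counts in EDB libraries, 1.39%, 1.17% and 1.42% in ICH libraries, and 2.95%, 2.04% and 4.38% in Sham libraries. Again no groups overlapped and EDB was lowest.

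Synm counts came to 0.981%, 1.64% and 1.37% of Gfap counts in EDB libraries, 1.33%, 1.62% and 1.52% in ICH libraries, and 9.75%, 5.57% and 12.7% in Sham libraries. Both EDB and ICH lay below Sham, and EDB and ICH overlapped. These percentages depend on transcript length and say nothing of which protein is more abundant.

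On the log2 scale the ratio of Nes to Gfap differed by -1.85 between EDB and ICH, by -1.17 between ICH and Sham and by -3.02 between EDB and Sham. The ratio of Vim to Gfap differed by -0.91, -0.78 and -1.70 in the same order of comparisons. Between EDB and ICH the ratio of Nes to Vim differed by -0.94 and that of Synm to Nes by 1.66. Each of these 8 differences came from groups without overlap and had the smallest two-sided p that an exact permutation test of 3 against 3 can give, 0.1, or 0.138 after adjustment over the 18 ratio tests, so none could pass 0.05. The ratio of Synm to Gfap in EDB against ICH differed by -0.19 (exact permutation p = 0.7), and it turned to 0.01 without EDB 1.

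**Figure D3:**
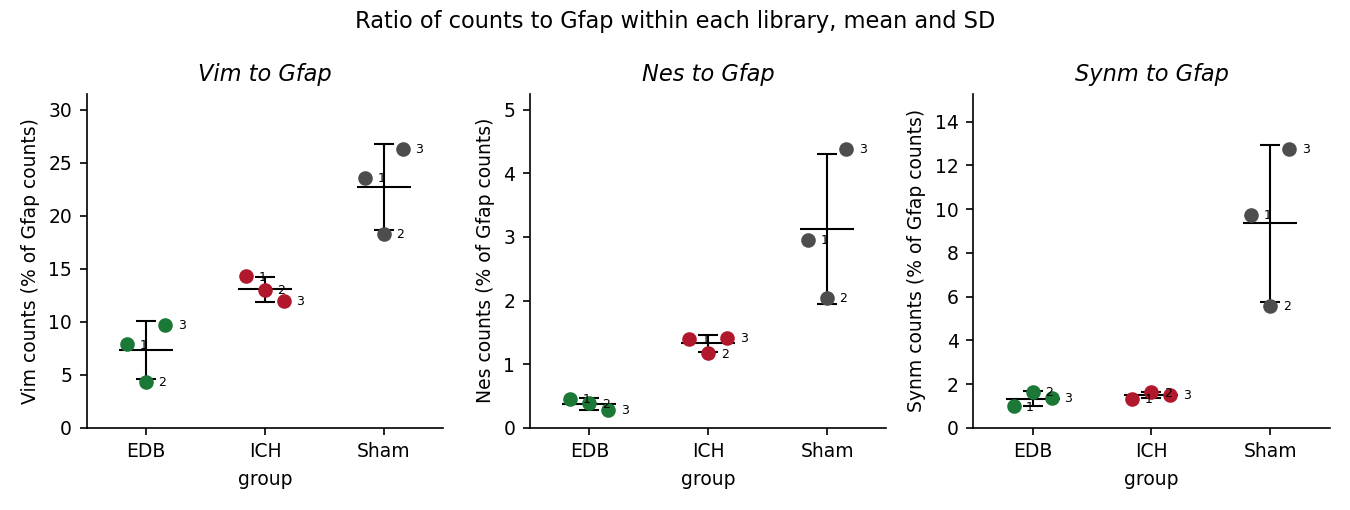
Counts of Vim, Nes and Synm as a percentage of Gfap counts in the same library (linear axes from 0), for EDB, ICH and Sham, with a point per library numbered by replicate, the mean and bars of 1 SD. The Vim and Nes shares are lowest in EDB and highest in Sham, while the Synm shares of EDB and ICH overlap.

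Across the 9 libraries the log2 CPM of Gfap and Vim had a Pearson r of 0.86, Vim and Nes 0.81, Nes and Synm 0.78, Vim and Synm 0.69, Gfap and Nes 0.54 and Gfap and Synm 0.47. These are descriptions over libraries that share the same 3 groups. The genes whose pattern was most like each member were taken from 10614 genes with a symbol and a mean of at least 5 CPM, by Pearson r of log2 CPM over the same 9 libraries.

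For Gfap they were Lgals3bp (r = 0.996), a secreted galectin-binding glycoprotein, the lysosomal enzymes Glb1 (0.994) and Fuca1 (0.991), Dera (0.989), a deoxyribose-phosphate aldolase, and Irgm (0.988), an immunity-related GTPase. Lgals3bp averaged 226 ± 13.0 CPM in EDB, 319 ± 26.5 CPM in ICH and 51.1 ± 8.11 CPM in Sham (SD, n = 3 each). Of the genes ranked, 514 had an r above 0.9 with Gfap.

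For Vim they were Hspb1 (0.985), a small heat shock protein, Plxnb2 (0.979), a semaphorin receptor, Plcb3 (0.979), a phospholipase C, P2rx4 (0.977), an ATP-gated channel, and Glipr2 (0.974). For Nes they were the tubulin gene Tubb6 (0.978), the adaptor Shc4 (0.974), the cytoskeletal gene Septin11 (0.968), Dnajc9 (0.956), a histone co-chaperone, and the endothelin receptor Ednra (0.952). Tubb6 averaged 11.5 ± 3.71 CPM in EDB, 49.6 ± 6.33 CPM in ICH and 11.6 ± 0.716 CPM in Sham (SD, n = 3 each). It was picked for its likeness to Nes, so the pattern it shares with Nes follows from that choice. For Synm they were Hmgn1 (0.956), a nucleosome-binding protein, the helicase Recql (0.954), the nuclear pore gene Nup160 (0.945), and Top2a (0.944) and Nusap1 (0.939), which act in chromosome segregation. An r above 0.9 was reached by 163 genes for Vim, 62 for Nes and 39 for Synm.

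The rest of the filament family was read from lists written for this comparison. None of 7 other type III and IV genes tested (Des, Prph, Ina, Nefl, Nefm, Nefh and Sync) was called in any of the 3 comparisons. Their median log2 fold change was -0.21 in ICH against Sham, 0.36 in EDB against ICH and 0.15 in EDB against Sham. The neurofilament subunit Nefm stood at 117, 145 and 90.7 CPM in EDB libraries, 86.1, 47.8 and 39.1 CPM in ICH libraries, and 86.1, 123 and 104 CPM in Sham libraries. Its values were -0.86 ± 0.28 in ICH against Sham (edgeR adjusted p = 0.0531) and 1.03 ± 0.28 in EDB against ICH (edgeR adjusted p = 0.109). For ICH against Sham it was called without EDB 3 or ICH 1 (edgeR adjusted p of 0.0490 and 0.0051), and also with RLE scaling, DESeq2, limma-voom, a replicate block, and without Sham 2, ICH 1 and EDB 3 together. In EDB against ICH it was called without ICH 1 (edgeR adjusted p = 0.0495), with DESeq2 and without those 3 libraries. Neuron markers are given beside it. Of 12 neuron markers tested, 3 fell in ICH against Sham (Rbfox3, Stmn2 and Tubb3; median of the 12 -0.42), and of 11 markers of striatal neurons 5 fell, among them Drd2, Adora2a, Rgs9 and Rasd2 (median of the 11 -0.57). Over all genes tested, 7.3% were called lower in ICH against Sham. The calls of Rbfox3, Adora2a and Rasd2 held without any 1 library, whereas those of Stmn2, Tubb3 and Rgs9 were each lost without at least 1 of the ICH libraries. None of either list was called in EDB against ICH, where the medians were 0.25 and 0.43. The part of neuron content in the Nefm values was not tested.

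Of 5 keratins tested and of 5 lamin and lens filament genes tested, none was called in any comparison. Krt18, a simple epithelial keratin, was at 1.92, 0.96 and 18.7 CPM in EDB libraries, against 0.57 to 1.81 CPM in ICH libraries and 1.03 to 2.75 CPM in Sham libraries. The high value is again EDB 3. The nuclear lamina gene Lmnb1 was at 11.9, 10.8 and 14.8 CPM in EDB libraries, 25.2, 30.8 and 28.9 CPM in ICH libraries, and 25.98, 12.6 and 11.04 CPM in Sham libraries. Its edgeR adjusted p was 0.0864 for ICH against Sham (0.00323 without Sham 1). For EDB against ICH it was 0.0927 (0.0358 without Sham 1).

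**Figure D4:**
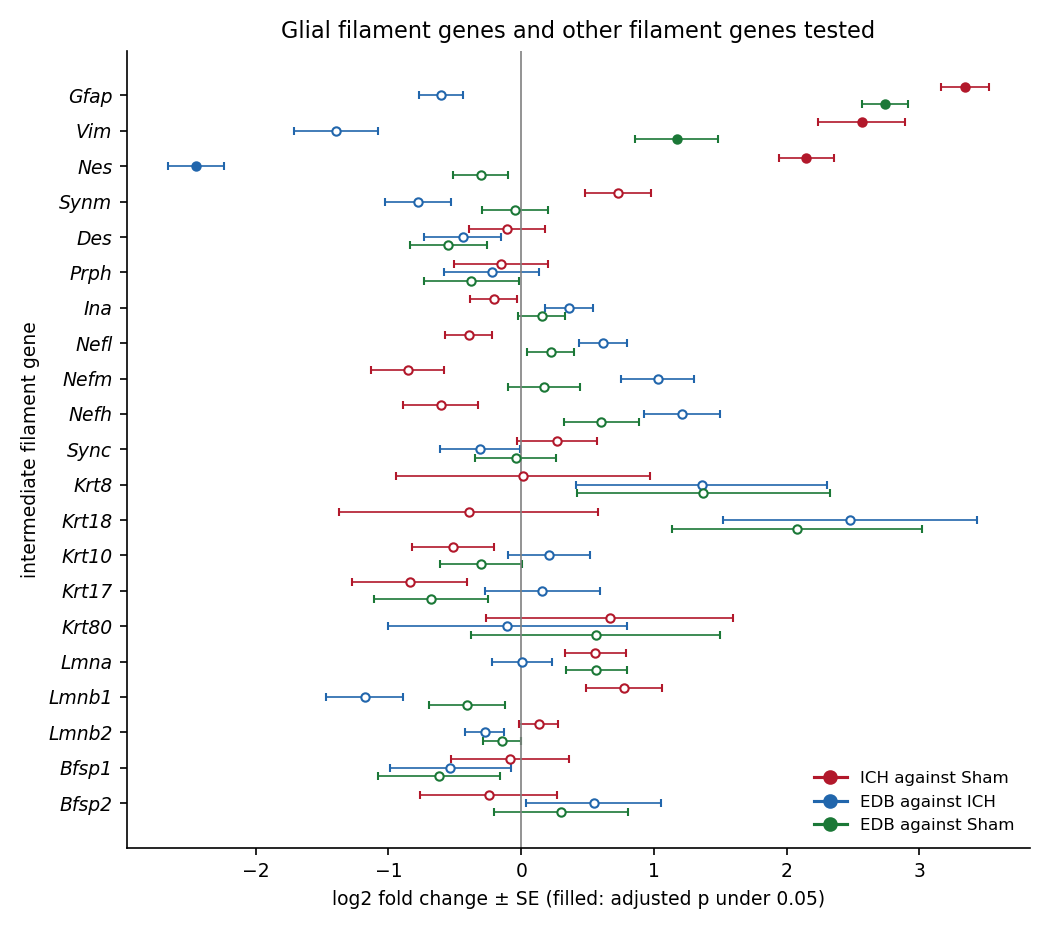
Log2 fold changes with bars of 1 SE for Gfap, Vim, Nes, Synm and the other intermediate filament genes tested, in ICH against Sham, EDB against ICH and EDB against Sham; filled points have an edgeR adjusted p under 0.05. Filled points occur only for Gfap, Vim and Nes.

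Among 14 listed linkers and scaffolds of filaments, junctions, focal adhesions and actin, 2 rose and 2 fell in ICH against Sham. Their median log2 fold change was -0.04, and of all genes tested 11.4% were called higher and 7.3% lower. Zyx (zyxin), a focal adhesion protein, rose by 1.17 ± 0.18 on the log2 scale (edgeR adjusted p = 0.000981). Tln1 (talin), which links integrins to actin, rose by 0.84 ± 0.13 (edgeR adjusted p = 0.00119). Plec (plectin), the crosslinker that binds vimentin and Gfap filaments, fell by 0.57 (edgeR adjusted p = 0.0165), a call lost without ICH 1 or ICH 3 (edgeR adjusted p = 0.0506 and 0.0580 at the lowest and highest). Actn1 was called lower, at an edgeR adjusted p of 0.0295, and lost its call without any of 5 libraries (ICH 1, ICH 2, ICH 3, Sham 2 or Sham 3). None of the 14 was called in EDB against ICH, and Zyx and Tln1 were called higher in EDB against Sham, Tln1 not without EDB 1, Sham 1 or Sham 3. The share of all genes called higher in EDB against Sham was 4.95%.

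Of 5 filament chaperones tested, small heat shock proteins that bind filament subunits, Hspb1 rose in ICH against Sham by 3.09 ± 0.29 (edgeR adjusted p = 6.46e-05). Hspb1 stood at 21.5, 11.02 and 29.9 CPM in EDB libraries, 69.1, 79.3 and 76.5 CPM in ICH libraries, and 8.81, 8.75 and 8.84 CPM in Sham libraries. The EDB libraries lay below every ICH library and above every Sham library for Hspb1, and EDB 2 was the lowest and EDB 3 the highest of its group, as for Vim. Hspb1 was the gene most like Vim over these same libraries, so this shared order is not separate information. It fell in EDB against ICH by 1.85 (edgeR adjusted p = 0.0244), a call lost without EDB 1 or any 1 ICH library. Cryab (alpha B-crystallin), the chaperone that gathers with Gfap in Rosenthal fibers, followed another course: 99.6, 94.7 and 105 CPM in EDB libraries, 65.3, 52.8 and 33.3 CPM in ICH libraries, and 37.0, 51.0 and 40.5 CPM in Sham libraries. It rose in EDB against Sham by 1.22 ± 0.22 (edgeR adjusted p = 0.00666), while its value in EDB against ICH, 0.98 ± 0.21, did not pass the test (edgeR adjusted p = 0.0660; 0.0457 without Sham 2). Cryab is also made by oligodendrocytes, the myelin-forming cells. The summed level of 10 oligodendrocyte markers was 40209, 39863 and 45376 CPM in EDB libraries, 33807, 29840 and 17046 CPM in ICH libraries, and 23768, 28909 and 17613 CPM in Sham libraries, so the EDB libraries were highest for these markers too. Their median log2 fold change was 0.82 in EDB against Sham, where 2 of the 10 rose (Cldn11 and Myrf, each call lost without any 1 of EDB 1, EDB 2, EDB 3, ICH 2, Sham 1 and Sham 3) and 8 were not called. Over all genes tested, 4.95% were called higher in EDB against Sham. The median of the 10 markers was 0.52 in EDB against ICH, with none of the 10 called and all 10 positive. Their part in the level of Cryab was not tested.

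Kinases that phosphorylate filament proteins during mitosis or signalling were mixed. Of 12 tested, 4 rose (Aurkb, Aurka, Plk1 and Cdk1) and 2 fell (Camk2a and Akt1) in ICH against Sham. Over all genes tested, 11.4% were called higher and 7.3% lower. Aurka, a mitotic kinase, rose by 1.62 ± 0.17 (edgeR adjusted p = 9.68e-05) and Plk1 by 1.71 ± 0.32 (edgeR adjusted p = 0.00415), and Camk2a, an abundant neuronal kinase, fell by 1.05 (edgeR adjusted p = 0.00201). In EDB against ICH, 2 of the 12 fell, Aurka by 0.96 and Plk1 by 1.66, beside 0.631% of all genes called lower. Of 10 proteases and modifiers tested, including the calpains that cut filaments, the phosphatase subunit Ppp1ca fell in ICH against Sham, but its call was lost when any 1 library other than Sham 3 was left out. None of these 10 was called in EDB against ICH.

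Stat3, downstream of cytokines of the interleukin 6 family, is a known activator of Gfap transcription. Of 15 tested genes of that pathway, 5 rose in ICH against Sham (Lif, Il6r, Osmr, Stat3 and Socs3) and none fell, with a median log2 fold change of 1.13. Over all genes tested, 11.4% were called higher and 7.3% lower. Stat3, the transcription factor, stood at 137, 122 and 127 CPM in EDB libraries, 167, 195 and 173 CPM in ICH libraries, and 84.3, 88.9 and 71.6 CPM in Sham libraries. Its groups did not overlap, in the same order as those of Gfap, with values of 1.13 ± 0.12 in ICH against Sham (edgeR adjusted p = 0.000112), -0.47 ± 0.12 in EDB against ICH (edgeR adjusted p = 0.0966) and 0.66 ± 0.12 in EDB against Sham (edgeR adjusted p = 0.00776). Socs3, the feedback inhibitor that Stat3 induces, stood at 8.04, 4.67 and 3.87 CPM in EDB libraries, 22.7, 18.8 and 17.9 CPM in ICH libraries, and 2.81, 2.39 and 2.76 CPM in Sham libraries. It rose by 2.89 ± 0.29 in ICH against Sham and was the only gene of the 15 called in EDB against ICH, where it fell by 1.84 (edgeR adjusted p = 0.0244), beside 0.631% of all genes called lower. Only RNA of these genes was measured, and the part of Stat3 in the level of Gfap was not tested.

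Of 20 transcription factors tested that act on filament genes, 3 rose in ICH against Sham (Stat3, Nfix and Jun) and 2 fell (Fosl2 and Klf4). Their median log2 fold change was -0.004, and of all genes tested 11.4% were called higher and 7.3% lower. Fosl2, an AP-1 family member, fell by 1.48 (edgeR adjusted p = 0.00222). In EDB against ICH only Fos was called, lower, beside 0.631% of all genes called lower. Of 12 ligands and receptors of the Tgf-beta and Bmp pathway, 3 rose in ICH against Sham (Tgfb1, Tgfbr1 and Tgfbr2) and 1 fell (Acvrl1), with a median of 0.30. Tgfb1, a ligand known to induce Gfap in cultured astrocytes, rose by 1.81 ± 0.22 (edgeR adjusted p = 0.000231), and its receptor Tgfbr2 by 1.33 ± 0.16 (edgeR adjusted p = 0.000201). None of the 12 was called in EDB against ICH.

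Of 20 astrocyte identity genes tested, 4 rose (Gja1, Glul, Atp1b2 and Mlc1), 3 fell (Gjb6, Aldoc and Slc7a10) and 13 were not called in ICH against Sham, with a median of -0.03 for the 20, beside 11.4% of all genes called higher and 7.3% lower. Their summed level ran from 11913 to 13170 CPM in EDB, 12349 to 15928 CPM in ICH and 11766 to 13420 CPM in Sham, so the groups overlapped. The gap junction gene Gja1 rose by 0.60 ± 0.14 (edgeR adjusted p = 0.0107). None of the 20 was called in EDB against ICH.

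Of 23 reactive astrocyte genes tested, the 4 filament genes not among them, 17 rose in ICH against Sham and none fell, with a median of 1.79. Of the 23 values, 21 were above 0, and the lowest, -3.22, was not called. In EDB against ICH 7 of the 23 fell (Cd44, Timp1, Hspb1, Serping1, Emp1, S100a10 and Ggta1), and in EDB against Sham 6 rose (Timp1, Hspb1, Aspg, C3, Serping1 and Stat3). The shares of all genes were 0.631% called lower in EDB against ICH and 4.95% called higher in EDB against Sham. Hspb1 and Stat3 are also counted in the lists above. Their summed level was 918, 610 and 536 CPM in EDB libraries, 1325, 1151 and 932 CPM in ICH libraries, and 299, 290 and 279 CPM in Sham libraries, without overlap. The summed level of microglia and macrophage genes, given below, was also highest in ICH and lowest in Sham, without overlap. The part of those or other cells in the levels of the reactive astrocyte genes was not tested. Serping1, the C1 inhibitor, rose by 3.08 ± 0.20 in ICH against Sham (edgeR adjusted p = 1.99e-05), and S100a10, an annexin partner, by 2.81 ± 0.28 (edgeR adjusted p = 7.03e-05). S100a10 stood at 14.7, 6.83 and 9.69 CPM in EDB libraries, 51.5, 35.0 and 36.8 CPM in ICH libraries, and 5.43, 6.56 and 5.59 CPM in Sham libraries, and fell in EDB against ICH by 1.98 (edgeR adjusted p = 0.0197), a call lost without EDB 3 or ICH 2.

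Nes is also a marker of progenitors and dividing cells, so those lists stand beside it. Of 12 neural progenitor genes tested, 1 rose in ICH against Sham (Fabp7) and 2 fell (Hes5 and Prom1), and none was called in EDB against ICH. Over all genes tested, 11.4% were called higher and 7.3% lower in ICH against Sham. In EDB against ICH only 1 of the 12 values was above 0, with a median of -0.61. Fabp7, a fatty acid binding protein of radial glia, rose by 2.04 ± 0.29 (edgeR adjusted p = 0.000612), and Hes5, a Notch target, fell by 1.63 (edgeR adjusted p = 0.000143). Of 12 cell cycle genes tested, 11 rose in ICH against Sham, with a median of 1.96. Their summed level was 99.9, 89.2 and 123 CPM in EDB libraries, 247, 260 and 269 CPM in ICH libraries, and 123, 56.5 and 73.1 CPM in Sham libraries. As for Nes, ICH stood apart and EDB overlapped Sham. In EDB against ICH all 12 values were below 0, with a median of -1.56, and 1 was called, the nucleotide reductase subunit Rrm2, by -2.07 ± 0.31 (edgeR adjusted p = 0.0244), beside 0.631% of all genes called lower.

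Markers of other cell types were counted in the same way, beside 11.4% of all genes called higher and 7.3% lower in ICH against Sham. Of 13 microglia and macrophage genes tested, 11 rose in ICH against Sham, 1 fell in EDB against ICH (Lyz2, lost without EDB 2, EDB 3, ICH 1 or ICH 2) and 10 rose in EDB against Sham. Their summed level was 2913, 2676 and 1640 CPM in EDB libraries, 3704, 3828 and 3961 CPM in ICH libraries, and 707, 708 and 829 CPM in Sham libraries. Of 13 endothelial genes tested, 1 rose (Ly6c) and 2 fell (Flt1 and Egfl7) in ICH against Sham (median of the 13 -0.42). None of them was called in EDB against ICH. The Egfl7 call was lost without any 1 library other than ICH 2. Of 12 pericyte and smooth muscle genes, 3 rose and 4 fell in ICH against Sham, and Anpep fell in EDB against ICH, a call lost without any 1 library other than ICH 3 and Sham 2. Of 12 fibroblast genes, 3 rose in ICH against Sham (Fn1, Fbln1 and Pdgfra) and none was called in EDB against ICH. All 3 of these calls depended on single libraries: that of Fn1 was lost without ICH 1, ICH 2 or any 1 Sham library, that of Fbln1 without any 1 ICH or Sham library, and that of Pdgfra without any 1 library other than EDB 3 and Sham 3. Of 10 genes of oligodendrocyte precursors, dividing glia of the adult brain, 7 rose in ICH against Sham (Pdgfra, Cspg4, Olig2, Sox10, Gpr17, Vcan and Lhfpl3; median of the 10 0.64), none was called in EDB against ICH (median -0.20) and 3 rose in EDB against Sham (median 0.37). Their summed level was 1495, 1559.7 and 1409.7 CPM in EDB libraries, 1595, 1749 and 1404.5 CPM in ICH libraries, and 1085, 1120.0 and 990.0 CPM in Sham libraries, so every EDB and ICH library was above every Sham library. The calls of Gpr17 and Lhfpl3 in ICH against Sham held without any 1 library, that of Olig2 was lost without ICH 2, and that of Cspg4 without ICH 2 or Sham 1. None of 11 ependymal genes and none of 10 choroid plexus genes tested was called in any comparison, and the choroid plexus medians of 3.72 in EDB against ICH and 4.70 in EDB against Sham come from a group in which EDB 3 alone was high. The part of these cells in the levels of Vim and Nes was not tested.

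**Figure D5:**
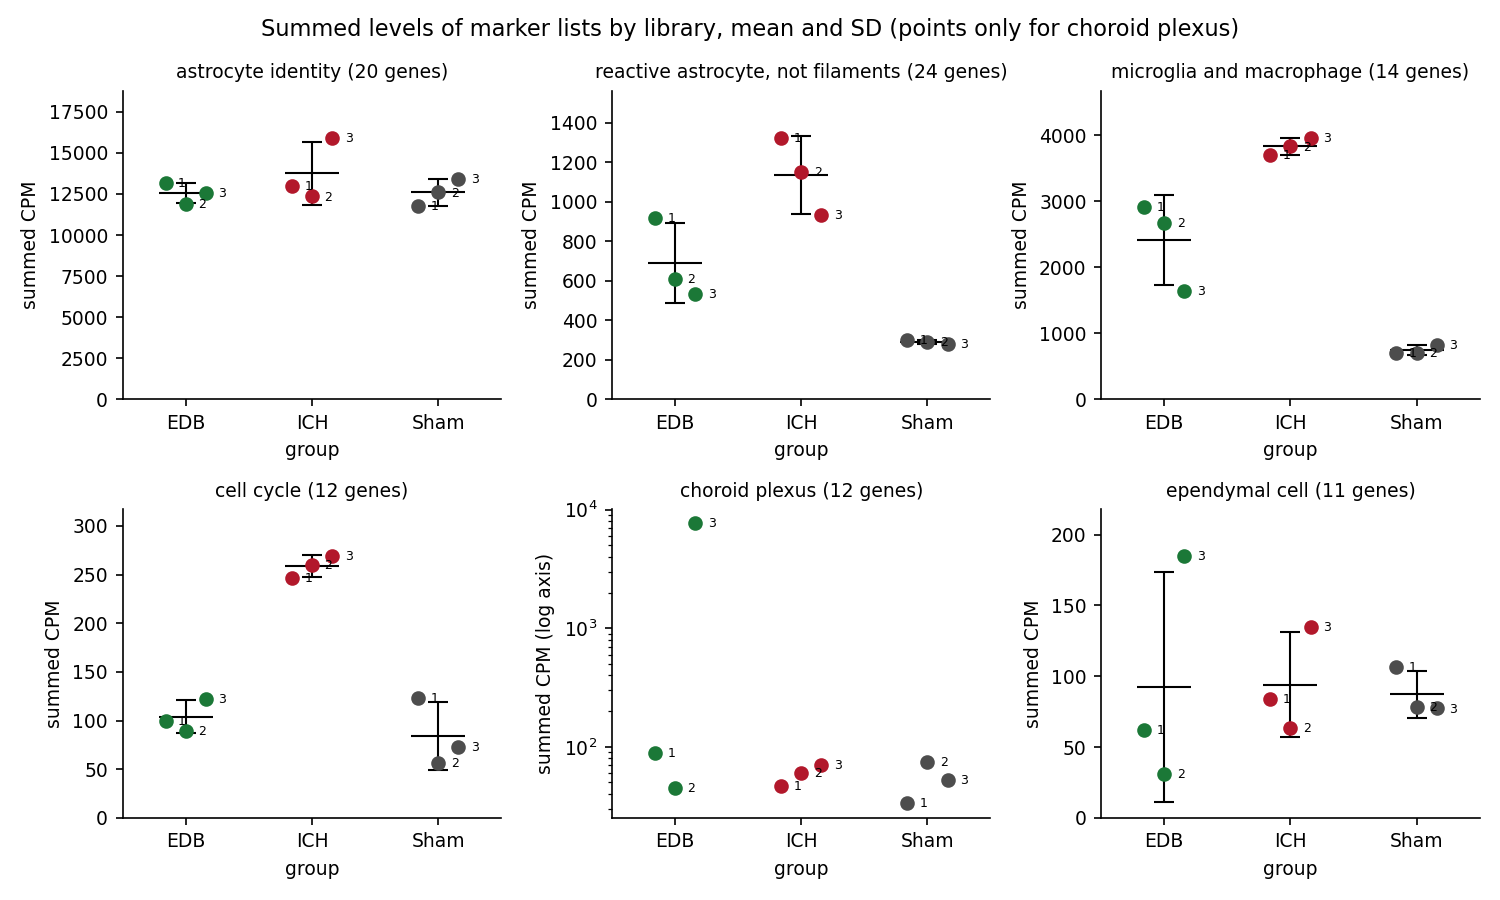
Summed CPM of 6 marker lists in EDB, ICH and Sham, with a point per library numbered by replicate; the choroid plexus panel has a log axis and points only, and the others have linear axes from 0 with the mean and 1 SD. Cell cycle sums separate ICH from EDB and Sham, astrocyte identity sums overlap in all groups, and EDB 3 is alone in its choroid plexus sum.

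Nes kept its call in EDB against ICH in all 9 refits that each left out 1 library. Of 10 named list genes called there, none did, and 38 of 60 did in ICH against Sham and 12 of 31 in EDB against Sham. Over all the lists, 14 genes were called in EDB against ICH, and this count ran from 2 to 30 over the same refits, with 2 without EDB 2, EDB 3 or ICH 2 and 30 without Sham 2. Aurka and Plk1 lost their calls without any of 8 and any of 7 libraries, Socs3 without EDB 2, EDB 3, ICH 1 or ICH 2, Rrm2 without any of 5, and Serping1 and Timp1 without any of 7. In ICH against Sham the calls of Gjb6 (ICH 2, Sham 3), Glul (ICH 3, Sham 1), Slc7a10 (ICH 1, ICH 3, Sham 1, Sham 2), Cdk1 (Sham 3), Nfix (ICH 3, Sham 3) and Klf4 (ICH 1, ICH 2, Sham 3) were lost without any 1 of the libraries given. The calls of Tgfbr1 and Prom1 there were lost without any of 6 and any of 5 libraries. In EDB against Sham the Hspb1 call was lost without EDB 1, EDB 3, Sham 1 or Sham 3.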

How the data were processed

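The data are 9 RNA-seq libraries of striatal tissue from rats, 3 each for EDB, ICH and Sham. The deposited files hold raw read counts per gene, 1 library per file. Per the submitters' processing notes, cutadapt, HISAT2, HTSeq and limma were used with build Rnor_6.0. The sources used here give no versions, annotation or strand setting, so reads of overlapping genes could be split in ways that cannot be checked.

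Genes were filtered with filterByExpr by group, which left 14274 of 22890, libraries were scaled by TMM, and all 9 were fitted together with edgeR 4.0.16 in R 4.3.3 (quasi-likelihood, robust, Benjamini-Hochberg over all genes tested, threshold 0.05). CPM use the TMM-scaled library sizes. A standard error is the log2 fold change divided by the square root of F. Within-library log2 ratios of counts were compared with exact two-sided permutation tests. Alternatives used RLE or library size scaling, other filters, DESeq2 1.42.0, limma 3.58.1 (voom), a replicate block, fewer libraries, no mitochondrially encoded genes, and counts plus 1 in the ratios.

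Named genes were the 4 members, up to 4 genes of each of 24 lists with the smallest p in ICH against Sham, of which the text prints a part, and the 5 genes most like each member. Other list genes named without values are the called genes of their list. The members, the lists and the alternative settings were chosen with earlier results of these data known, so no list is independent support for a direction.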

Additional observations from a re-analysis of the deposited data

How the results depend on the processing

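Of the 12 member values, 5 kept their call and direction under all 10 alternative fits and all 9 refits that each left out 1 library: Gfap, Vim and Nes for ICH against Sham, Nes for EDB against ICH, and Gfap in EDB against Sham. Synm in ICH against Sham (0.73) was called with DESeq2 (0.70), and ran from 0.49 to 0.85 over the refits. In EDB against ICH, DESeq2 called Gfap (-0.58) and Vim (-1.37), limma-voom called Vim (-1.53), and Synm was called at -0.99 without Sham 2, ICH 1 and EDB 3 together. The Vim call in EDB against Sham was lost with no filter (1.17), with limma-voom (1.04), with only the 6 libraries compared (1.17) and without those 3 libraries (0.66), and its value ran from 0.76 to 1.49 over the refits. Synm in EDB against Sham ran from -0.29 to 0.15, and the log2 ratio of Synm to Gfap in EDB against ICH from -0.36 to 0.014. The cause was not tested.

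Genes called in EDB against ICH numbered 98, against 702 with DESeq2, 182 with limma-voom, 198 without the 3 libraries and 8 to 321 over the refits (8 without ICH 2, 321 without Sham 2). List genes called there numbered 14, against 46 with DESeq2, 25 without the 3 libraries and 2 to 30 over the refits. In EDB against Sham 1094 genes were called, against 1797 with DESeq2 and 508 to 1661 over the refits, and 46 list genes, against 71 with DESeq2 and 22 to 56. In ICH against Sham 2670 were called, against 1769 to 2624 over the refits, while DESeq2 called more, 1800 higher and 1465 lower. Scaling by library size alone moved the median of all genes to 0.10 (ICH against Sham) and -0.11 (EDB against ICH), and the split of calls in ICH against Sham to 2008 higher and 691 lower, against 1628 and 1042.

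Whether replicate numbers pair the samples was not settled. Same-numbered deviations correlated at -0.31 to 0.25, but differently numbered libraries were not compared, so these values cannot decide it. With a replicate block, Vim in EDB against Sham was 1.11 (limit missed at edgeR adjusted p = 0.0662), 58 genes and 9 list genes were called in EDB against ICH, and no other member call changed. Of 282 values of the named list genes, 101 were called, and none of these turned sign under any alternative. Among all 282, 48 turned sign and 101 changed their call under at least 1. Counting error on the members was small, and 3 libraries a group limit what small differences can show.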
